A study of Mus musculus with 18 samples.

Results

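Imprinted genes are transcribed mainly from 1 parental copy, and 37 protein-coding ones, taken from a list of known imprinted genes, were described here among the 21859 genes of a nascent transcription data set from mouse embryonic stem (ES) cells. Each was found by its symbol, and the members were grouped by imprinted region and by the parental allele from which the gene is known to be transcribed: 23 are paternally expressed, 12 are maternally expressed, and 2, Gnas and Grb10, change allele with the isoform or the tissue. They lie in 19 regions, of which 6 hold more than 1 member.

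Nascent RNA was measured by transient transcriptome sequencing (TT-seq), in which RNA made during a 5 min pulse of 4-thiouridine is purified and sequenced. The 18 libraries came from E14 ES cells grown in serum and LIF with 2i inhibitors, 3 per group in 6 groups. All cells carried osTIR1, the plant F-box protein that directs tagged proteins to the proteasome when auxin is present. In 2 homozygous clones, SPT16, a subunit of the histone chaperone FACT, also carried a mini-AID degron and a V5 tag, while the untagged line carried osTIR1 alone. Each of these 3 lines was given either the auxin 3-indole acetic acid (IAA) or the vehicle, 0.1% ethanol, for 24 h. SPT16 is thus depleted in 2 groups, the tagged clones with IAA, and 4 groups are controls. The labels give the IAA dose as 500 nM while the methods give the dose in micromolar units, and the discrepancy was not resolved.

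For each gene, the value used here was 1 mean normalized read count over all 18 libraries, depleted and control together, calculated by the authors. It has no replicate error, so an order of genes below is a description of these means and no difference was tested. No comparison of depleted with control cells is given, because the other values deposited are the study's own fold changes and p-values. The means also do not separate the parental copies: the alleles named below are background knowledge of each gene and were not measured.

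Imprinting is set in the germ line. Methylation of the DNA at imprinting control regions is laid down in the egg or the sperm and is kept after fertilization by the zinc finger protein ZFP57, which binds a methylated hexamer and recruits TRIM28 and SETDB1. Many imprinted genes control fetal growth, the placenta or nutrient transport, and their imprints are known to be unstable in cultured ES cells.

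Because the hexamer bound by ZFP57 is a sequence feature that the choice of genes did not use, TGCCGC was searched for on both strands in the 250 bases before each start listed by RefSeq (GRCm38.p6). RefSeq starts were matched for 31 members, with 50 windows. The others are Rtl1, Peg10, Cdkn1c, Kcnq1, Impact and Sgce. The hexamer was in 6 windows (12%), in 5 genes, against 10.5% of the windows of all genes in the table and 8.68% of all promoters. The windows of the 5 genes are given here with the hexamer, read on either strand, in capitals.
Mest, chr6:30737800-30738049, plus strand: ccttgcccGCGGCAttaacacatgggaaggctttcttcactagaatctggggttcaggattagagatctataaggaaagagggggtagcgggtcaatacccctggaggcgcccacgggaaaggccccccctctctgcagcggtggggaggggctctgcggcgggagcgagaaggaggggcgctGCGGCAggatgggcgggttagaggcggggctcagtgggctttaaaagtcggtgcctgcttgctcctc
Nap1l5, chr6:58907127-58907376, minus strand: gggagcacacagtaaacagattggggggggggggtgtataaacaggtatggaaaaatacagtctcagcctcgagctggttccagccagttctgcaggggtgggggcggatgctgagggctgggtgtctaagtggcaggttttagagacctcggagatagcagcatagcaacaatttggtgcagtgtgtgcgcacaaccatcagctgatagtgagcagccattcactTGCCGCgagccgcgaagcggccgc
Plagl1, chr10:13090582-13090831, plus strand: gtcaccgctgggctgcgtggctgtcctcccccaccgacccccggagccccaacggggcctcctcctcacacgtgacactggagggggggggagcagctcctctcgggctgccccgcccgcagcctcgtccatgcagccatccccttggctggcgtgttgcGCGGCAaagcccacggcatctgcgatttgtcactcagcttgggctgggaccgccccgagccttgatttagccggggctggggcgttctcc
Zdbf2, chr1:63200108-63200357, plus strand: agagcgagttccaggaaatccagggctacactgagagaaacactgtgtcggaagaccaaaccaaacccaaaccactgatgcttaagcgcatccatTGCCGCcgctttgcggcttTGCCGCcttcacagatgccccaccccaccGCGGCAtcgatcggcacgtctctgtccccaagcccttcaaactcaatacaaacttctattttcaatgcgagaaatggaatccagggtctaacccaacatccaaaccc
Zim1, chr7:6696433-6696682, minus strand: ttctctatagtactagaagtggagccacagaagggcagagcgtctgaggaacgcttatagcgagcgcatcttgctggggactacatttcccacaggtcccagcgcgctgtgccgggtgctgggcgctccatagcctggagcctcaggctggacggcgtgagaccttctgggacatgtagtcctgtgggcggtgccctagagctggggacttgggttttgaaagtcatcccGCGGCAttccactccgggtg
Mest is a hydrolase gene, Nap1l5 a retrogene related to nucleosome assembly proteins, and Plagl1 a zinc finger growth regulator. They are 3 of the 11 members to which a germline methylation mark at their own promoter was assigned here from background knowledge. Of these 11 members, 8 had windows. Among their windows 4 of 13 held the hexamer, of which a pair belongs to overlapping starts of Mest. Among the other windows 2 of 37 held it. The mark was assigned by gene and not by window, and the Snrpn windows lie between chr7:60005200 and chr7:60450427. These counts therefore do not compare marked with unmarked promoters. Zdbf2, a zinc finger gene to which no mark was assigned, held the hexamer 3 times. That window lies before a start upstream of the one used in the gene table, and whether the upstream start carries a mark was not assessed. Zim1, a zinc finger gene of the Peg3 region, held it once. A match of letters is not a bound site, and binding of ZFP57 was not measured here.

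More of the members than of all genes had a mean above the lowest thresholds. A mean of at least 1 was found for 36 of 37 members (97.3%) against 80.9% of all genes, and a mean of at least 10 for 33 (89.2%) against 70.6%. At higher levels the shares lay closer: 23 members (62.2%) had a mean of at least 100 against 57.3%, and 14 (37.8%) a mean of at least 1000 against 37.3%. Per kb of annotated gene span, the median member stood at percentile 44.4 among the 17664 genes that had a mean of at least 1. Per kb of exon it stood at percentile 43.8. When all genes of the table were ranked per kb of span, those near 0 included, the median member stood above the middle, at percentile 54.8. Of the 36 members, 5 were in the highest 25% of genes per kb of span and 8 in the lowest 25%, and 4 and 9 per kb of exon.

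Levels are given on both lengths, since it is not stated whether reads in introns were counted. Across the 15428 genes with a mean of at least 10, the log2 mean was fitted on log2 exon length and log2 span together. The slopes were 0.99 on exon length and 0.09 on span, so the mean followed the exons. A value per kb of span is therefore lowered in genes with long introns, and the value per kb of exon is the closer measure of level. Spans and exons rank the members alike in part (Spearman's rho 0.824 across 36 genes, which are not independent replicates). Where the scales give opposite orders, this is said.

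**Figure D1:**
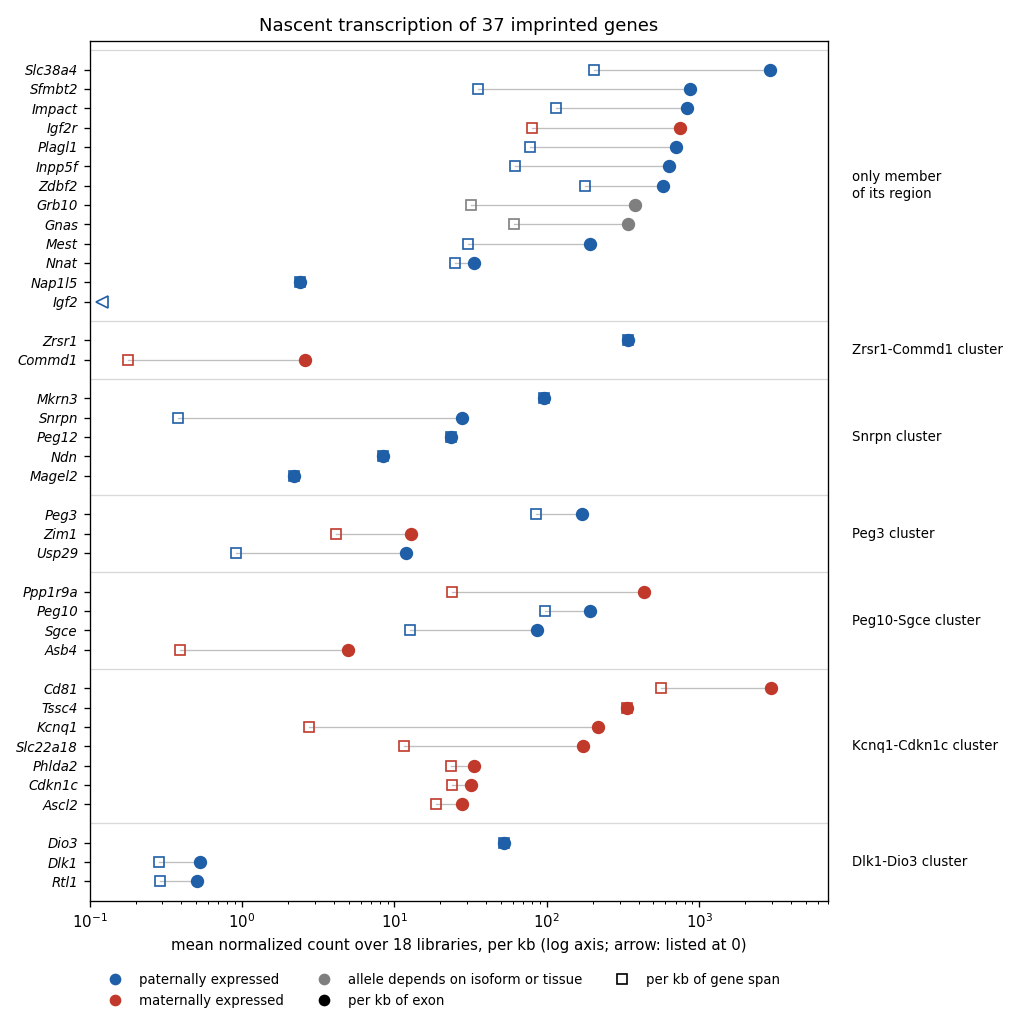
Mean normalized count per kb of exon (filled circles) and per kb of gene span (open squares) for the 37 imprinted genes, by region and coloured by the allele known to be expressed, on a log axis. Slc38a4 and Cd81 stand farthest to the right per kb of exon at 2902 and 2966, and Igf2 is listed at 0.

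Cd81, a tetraspanin, had the highest level of the members on both scales, at 562 per kb of span and 2966 per kb of exon (mean 8538). Slc38a4, an amino acid transporter that is paternally expressed and important in the placenta, reached 202 and 2902 (mean 12366). Only these members were above the 90th percentile per kb of exon. Per kb of span the members above it were Cd81, Zrsr1 and Tssc4, and Slc38a4 stood at percentile 85.2.

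Igf2r, which encodes the receptor that carries IGF2 to lysosomes and is maternally expressed, had 79.6 per kb of span and 746 per kb of exon (mean 6942). Its ligand, Igf2, the paternally expressed fetal growth factor, was listed at exactly 0. The Igf2 span, chr7:142650766-142666816 (mm10, minus strand), lies almost wholly within the annotated protein-coding Gm49394 on the same strand, which had a mean of 2.26. Of the genes that overlap a protein-coding gene on their strand, 497 of 1372 (36.2%) were listed at 0, against 1180 of 20445 others (5.77%). Reads shared by overlapping genes can be left out of counts, so the 0 is a listed value and the level of Igf2 is uncertain. Grb10, an adaptor that restrains insulin and IGF signalling, had 31.9 per kb of span and 380 per kb of exon.

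Among other regulators, Plagl1 had 77.8 per kb of span and 709 per kb of exon. Zdbf2 had 177 and 576, and Impact, an inhibitor of the GCN2 kinase in the amino acid response, had 115 and 835. Sfmbt2, a Polycomb-related gene whose intron holds a large miRNA cluster, had 35.4 and 871, over a span of 224744 bases. Inpp5f, an inositol phosphatase of which a short neuronal isoform is imprinted, had 61.8 and 632, and Gnas, which encodes the stimulatory G protein alpha subunit, had 61.2 and 342. The gene value sums over isoforms, so it does not show the imprinted isoforms of Inpp5f or Gnas.

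The 13 members with no other member in their region had a median of 61.2 per kb of span and 576 per kb of exon. The 24 members of regions with more than 1 had medians of 15.6 and 32.5. This split counts members only and does not set isolated against clustered imprinted genes. Other coding imprinted genes lie beside some of the 13, such as Blcap at Nnat, Copg2 at Mest and Ddc near Grb10. Among the 13, Mest had 30.5 and 193. Nnat, a neuronal membrane protein gene, had 24.96 and 33.4, and Nap1l5 had 2.39 on both scales, since it has no intron.

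Paternally and maternally expressed members could not be put in order. Per kb of span, the median was 30.5 for the 23 paternally expressed and 21.0 for the 12 maternally expressed members, while per kb of exon it was 86.4 and 103. Means of at least 100 were found for 14 of 23 (60.9%) and 7 of 12 (58.3%). All 4 members with a mean under 10, Igf2, Dlk1, Rtl1 and Nap1l5, are paternally expressed, as are 23 of all 37 members. The level of Igf2 is uncertain, as said above. These 4 genes are too few to set the alleles apart, and no difference was tested.

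The Kcnq1-Cdkn1c region on chromosome 7 holds 7 members, all maternally expressed, and is silenced on the paternal copy along the noncoding RNA Kcnq1ot1, whose own value was not analysed here. Levels differed 106-fold per kb of exon and 204-fold per kb of span between its highest and lowest member. Cd81 and its neighbour Tssc4, whose levels were 562 and 334 per kb of span, stood highest. Cd81 lies at chr7:143052739-143067934 and Tssc4 at chr7:143069249-143071093. Both are known to be imprinted in the placenta rather than in the embryo. Kcnq1, a potassium channel gene of 320681 bases, had 216 per kb of exon but only 2.76 per kb of span, the lowest of the region. Slc22a18, an organic cation transporter, had 173 and 11.5.

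The levels of Cdkn1c, Phlda2 and Ascl2 were close to each other, below the member median per kb of exon (95.3) and at or under it per kb of span (24.0). Cdkn1c, an inhibitor of cyclin-dependent kinases, had 31.6 per kb of exon and 23.8 per kb of span. Phlda2, which limits placental growth, had 33.4 and 23.3. Ascl2, a transcription factor of the trophoblast, had 27.9 and 18.6. The order of Slc22a18 against Cdkn1c and Phlda2 depends on the scale: it was 5.48-fold above Cdkn1c per kb of exon, whereas Cdkn1c was 2.07-fold above it per kb of span.

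**Figure D2:**
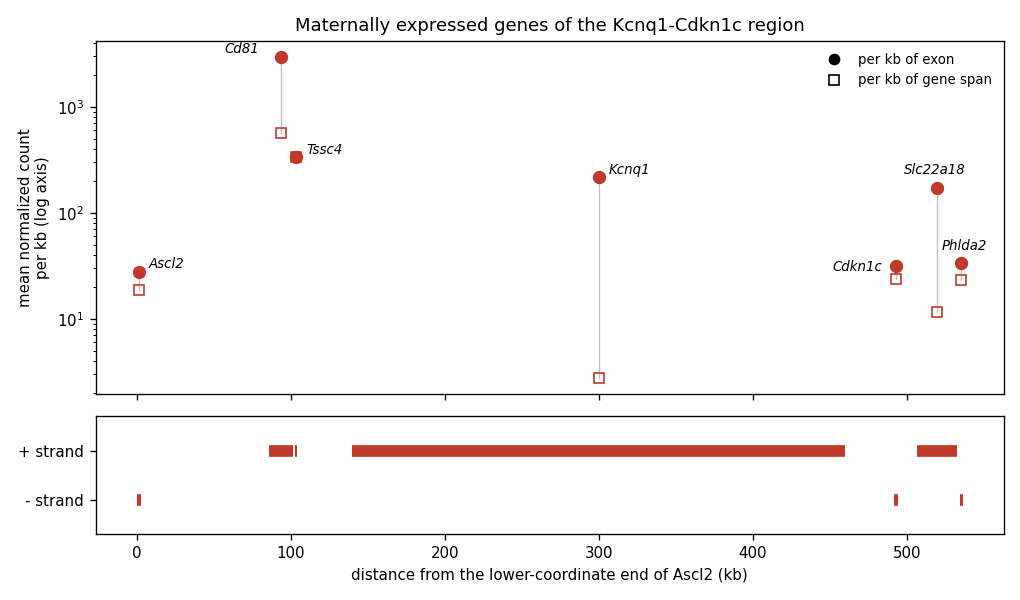
Upper panel, mean normalized count per kb of exon (circles) and of gene span (squares, log axis) for the 7 members of the Kcnq1-Cdkn1c region by position, in kb from the lower-coordinate end of Ascl2; lower panel, the gene spans by strand. Cd81 stands at 2966 per kb of exon, and Ascl2, Cdkn1c and Phlda2 between 27.9 and 33.4.

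The Peg3 region gave a pair of genes with a shared promoter and unequal levels. Peg3, a zinc finger gene of maternal behaviour and fetal growth, and Usp29, a ubiquitin protease gene, are both paternally expressed and start 146 bases apart on opposite strands, within the Peg3 imprinting control region. Peg3 had 170 per kb of exon and Usp29 11.9, a 14.3-fold difference, and 94.1-fold per kb of span. Zim1, which is maternally expressed, had 12.8 per kb of exon and 4.11 per kb of span, above Usp29 on both scales. The sequence between the annotated starts holds 5 CpG dinucleotides, in capitals.
Peg3-Usp29, chr7:6730432-6730577, plus strand: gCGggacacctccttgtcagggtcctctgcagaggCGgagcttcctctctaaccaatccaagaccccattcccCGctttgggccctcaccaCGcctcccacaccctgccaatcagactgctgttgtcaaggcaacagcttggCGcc
The Peg10-Sgce pair has the same arrangement, with 98 bases between its starts. Here the gene on the plus strand, Peg10, a retrotransposon-derived gene essential for the placenta, had 192 per kb of exon and Sgce, which encodes epsilon-sarcoglycan, 86.4, a 2.22-fold difference (7.69-fold per kb of span). The neighbours that are maternally expressed in some tissues were far apart. Ppp1r9a, a neuronal actin-binding protein gene, had 433 per kb of exon and 24.0 per kb of span, and Asb4, a gene of the SOCS box family, 4.98 and 0.394.

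The 5 members of the Prader-Willi/Angelman region are all paternally expressed and had levels between 0.380 and 95.3 per kb of span and between 2.20 and 95.3 per kb of exon. Mkrn3, a makorin ring finger gene, had 95.3 on both scales, and Peg12 had 23.7. The MAGE family genes Ndn and Magel2 had 8.41 and 2.20. Snrpn, which encodes a spliceosomal protein, had 27.8 per kb of exon and 0.380 per kb of span (mean 59.9). The gene model used starts far upstream, at chr7:60140219 on the minus strand, and spans 157725 bases, which lowers the value per kb of span. The Snrpn value is uncertain, since the gene overlaps Snurf, listed at 0, and Gm38393, with a mean of 929, on the same strand.

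In the Dlk1-Dio3 region, Dlk1, a Notch pathway ligand, had a mean of 3.00 and Rtl1, a retrotransposon-derived gene of the placenta, a mean of 3.22. Per kb of exon they stood at 0.530 and 0.507, the lowest of the members with a mean above 0. Per kb of span they had 0.285 and 0.289, and Commd1 was lower at 0.178. Dio3, which encodes the deiodinase that inactivates thyroid hormone, had 52.0 on both scales, 102-fold above Rtl1 per kb of exon.

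Some members lie inside another gene on the opposite strand, among them Tssc4, Zrsr1, Nnat and Nap1l5. Tssc4 had 334 per kb on both scales, while Trpm5, which spans it, had 2.28 per kb of exon and 0.571 per kb of span. Zrsr1, a splicing factor retrogene at chr11:22972005-22976496, had 342 per kb on both scales, while its host Commd1, a regulator of copper and NF-kappaB, had 2.59 per kb of exon and 0.178 per kb of span, a 132-fold difference per kb of exon and 1920-fold per kb of span. The Commd1 value is uncertain, since Gm28048, with a mean of 124, covers 99.7% of its span on the same strand. Nnat had the reverse order, with its host Blcap 31.0-fold above it per kb of exon and 8.46-fold per kb of span. So did Nap1l5, with its host Herc3 176-fold above it per kb of exon and 18.03-fold per kb of span. Herc3 and these pairs were chosen after their values were seen.

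PROMPTs are short unstable RNAs that run upstream and antisense from a promoter. The methods define them as lying within 1 kb of an annotated start and transcribed divergently from it. The windows given below were placed here, as the 1 kb before the Gencode gene start on the opposite strand. They may differ from the windows the authors counted. PROMPTs were normalized separately from the genes, so a PROMPT and a gene value are set side by side only as a description. A row was found for 27 members. The 10 others are Igf2r, Tssc4, Cd81, Usp29, Nnat, Nap1l5, Ndn, Magel2, Zrsr1 and Sgce. The median PROMPT mean was 0.661 against 0.262 for all 32253 PROMPTs. A mean of at least 1 was found for 12 members (44.4%, all PROMPTs 33.7%), of at least 10 for 2 (7.41%, 11.5%), and of at least 100 for the same 2 (7.41%, 0.915%).

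These were Rtl1 and Commd1, whose own gene values were low. The Rtl1 PROMPT had a mean of 168, the 109th highest of 32253, beside a mean of 3.22 for the gene. The window placed for it is chr12:109600331-109601330 on the plus strand, where the Gencode annotation used here has no gene. That strand is also the one from which the maternally expressed noncoding RNAs of the Dlk1-Dio3 region are made. The Commd1 PROMPT had a mean of 154, the 131st highest, beside 15.4 for the gene. The window placed for it is chr11:22982383-22983382 on the plus strand. No annotated gene lies on that strand of the window either. The 15.4 is uncertain, since Gm28048, with a mean of 124, covers 99.7% of the Commd1 span on the same strand.

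The next PROMPT means were 7.93 for Mest, 7.505 for Impact and 7.40 for Mkrn3. Phlda2 had 4.13, Dio3 2.98, Inpp5f 2.53 and Gnas 2.42. The windows placed for Dio3 (Dio3os and Mir1247), Gnas (Nespas) and Sfmbt2 (Gm13261) hold annotated RNAs on the PROMPT strand. The PROMPT values of these genes cannot be told apart from those RNAs. The highly transcribed Slc38a4 had 0.537 and Sfmbt2 0.0881. Dlk1 and Asb4 had PROMPTs listed at 0.

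**Figure D3:**
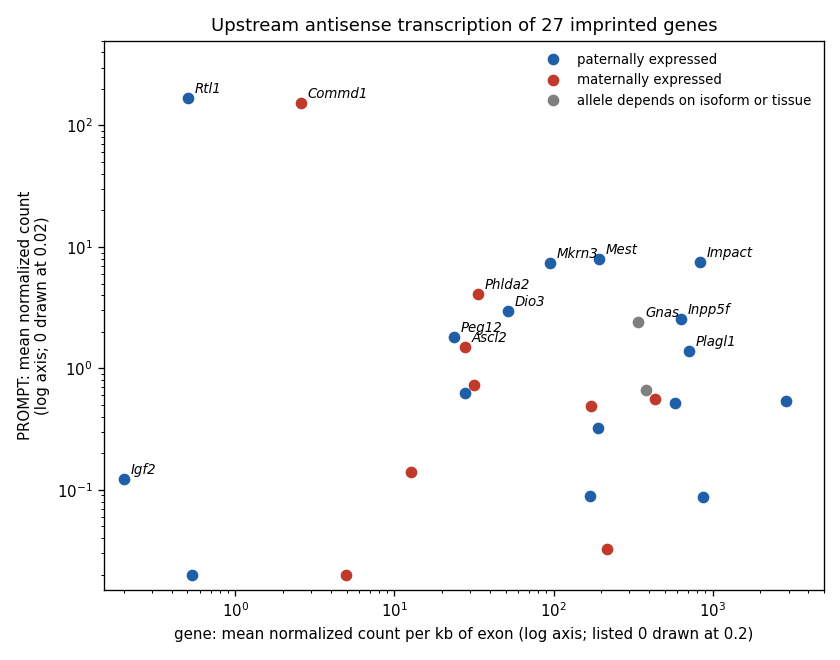
Mean normalized count of the PROMPT against that of its gene per kb of exon for the 27 imprinted genes with a PROMPT row, on log axes, with values of 0 drawn at the edge. Rtl1 and Commd1 stand above 100 on the PROMPT axis, and every other member lies under 10.

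CpG dinucleotides before the start numbered between 0 and 40 per window. The median was 10.5 per 250-base window for the members, against 10 for the windows of all genes in the table. Maternally expressed members had a median of 14 in 13 windows and paternally expressed members 8 in 31, and windows of 1 gene can overlap. Grb10 had the highest count, 40, before 1 of its starts, and Slc22a18 had none. Windows from both ends of the range are given, with CG in capitals: that of Slc38a4, with 3 CpG (202 per kb of span, 2902 per kb of exon), and that of Grb10, with 40 (31.9 and 380). Grb10 has another listed start with 8 CpG, and the gene value is not split by start.
Slc38a4, chr15:97055957-97056206, minus strand: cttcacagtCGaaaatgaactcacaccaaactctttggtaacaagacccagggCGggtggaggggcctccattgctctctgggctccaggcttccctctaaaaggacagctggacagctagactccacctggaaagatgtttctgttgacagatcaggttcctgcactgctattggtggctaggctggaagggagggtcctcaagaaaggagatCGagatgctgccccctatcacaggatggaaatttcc
Grb10, chr11:12037421-12037670, minus strand: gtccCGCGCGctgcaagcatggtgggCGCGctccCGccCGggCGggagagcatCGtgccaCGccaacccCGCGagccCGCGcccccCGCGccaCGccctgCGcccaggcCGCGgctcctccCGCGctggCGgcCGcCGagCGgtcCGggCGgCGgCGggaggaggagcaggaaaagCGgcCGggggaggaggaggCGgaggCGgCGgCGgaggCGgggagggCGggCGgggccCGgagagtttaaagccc

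**Figure D4:**
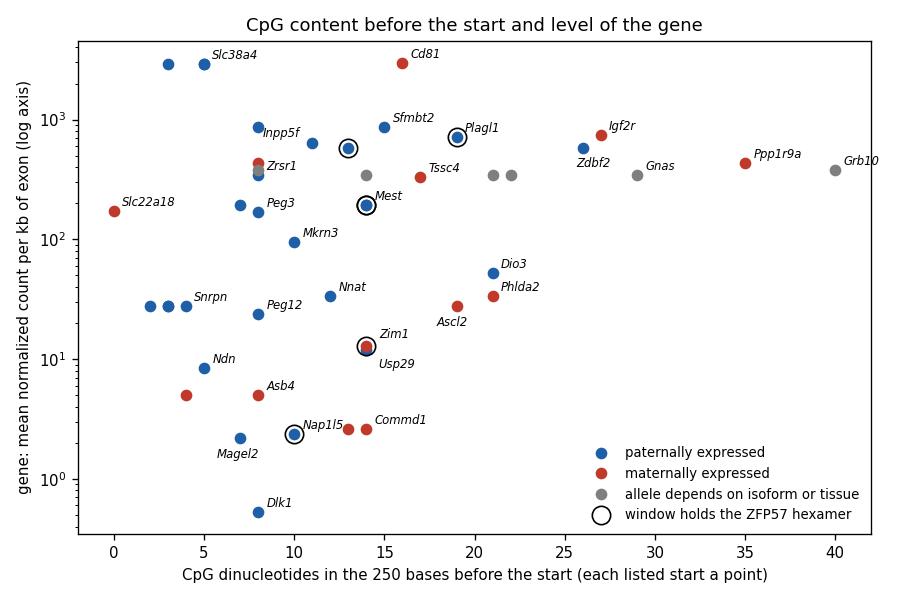
CpG dinucleotides in the 250 bases before each RefSeq start against the mean normalized count of the gene per kb of exon (log axis), coloured by the allele known to be expressed; rings mark windows with the ZFP57 hexamer, labels stand at the start with the most CpG, and the 4 starts of Igf2, listed at 0, are not drawn. Slc38a4 stands high at the left, between 3 and 5 CpG, and Grb10 reaches 40 at the right.

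A list of 16 factors that set, keep or remove imprints and DNA methylation was described beside the members. All 16 had a mean of at least 100, against 57.3% of all genes. Their median stood at percentile 89.8 per kb of span and 88.1 per kb of exon. Per kb of exon, Zfp57 had 3053, Trim28 3459, Uhrf1, which guides DNMT1 to replicated DNA, 2662, and Dnmt1, the maintenance methyltransferase, 1648. Per kb of span these had 1220, 451, 562 and 231. The lowest per kb of exon was Dppa3, which shields the maternal genome from demethylation, at 151 (34.95 per kb of span). The lowest per kb of span was Dnmt3a, a methyltransferase that sets new methylation, at 27.2 (177 per kb of exon). Of 27 other coding imprinted genes, 25 were in the table. Of these 25, 23 had a mean of at least 1 and 13 of at least 100, against 80.9% and 57.3% of all genes. Their median stood at percentile 26.9 per kb of span and 33.3 per kb of exon. Per kb of exon the highest were Nap1l4 at 3656, Trappc9 at 1786 and Blcap at 1035, and per kb of span Nap1l4 at 318, Blcap at 211 and H13 at 184. Mcts2 was listed at 0, and Kcnk9 and Ins2 had 0.0470 and 0.795 per kb of exon and were also the next lowest per kb of span.

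Most markers of the labelled cell type were high. All 8 ES cell markers had a mean of at least 100, against 57.3% of all genes. Their median stood at percentile 99.2 per kb of span and 98.3 per kb of exon. Utf1 was the lowest, at percentile 83.4 per kb of span and 49.7 per kb of exon. Feeder fibroblast markers had means between 0.118 and 25.7, and trophectoderm markers between 4.03 and 186. Primitive endoderm markers lay between 5.73 and 455 and neural markers between 1.03 and 1097, the last for Nes. The means include depleted cells, and whether these markers came from them was not tested.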

How the data were processed

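TT-seq reads from 18 libraries (6 groups of 3) were trimmed with Trim Galore, aligned to mm10 with STAR keeping unique alignments, and counted by strand on genes and PROMPTs. The methods name featureCounts as the counter, and the submitters' processing notes name HTSeq. The signal values used here are means of normalized counts over all libraries, deposited by the authors as 1 column per table; the other 4 columns hold the study's own fold changes, their errors and p-values, and were not used. Of 4 tables, 2 were used. No library totals were analysed, so depth is known only in relative terms: the lowest values fall on 18 levels, read as 1 read in 1 library each, that span 5.34-fold for genes and 4.84-fold for PROMPTs.

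Here, means were divided by gene span or by the union of exons (Gencode vM21, GRCm38; 21817 of 21859 genes matched) and ranked among genes with a mean of at least 1. All 37 members are named. CpG and hexamers were counted in RefSeq windows. The slope calculation was run on simulated means with a known length dependence, which checks the calculation and not these counts. Python 3.11.15, pandas 2.3.3 and numpy 2.4.6 were used. Labels give replicate numbers. The methods use n for technical replicates of a biological sample and call the 2 clones the biological replicates. The members, lists, pairs and printed sequences were chosen with earlier results of these data known, and each member's allele and region are background knowledge.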

Additional observations from a re-analysis of the deposited data

How the results depend on the processing

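The median percentile of the members was 44.4 per kb of gene span. It was 43.8 per kb of exon, 43.1 without a length, 54.8 when all genes were ranked and 44.4 for the 24 members that overlap no gene on the same strand. The count of members with a mean of at least 1 was 36; at 10 it was 33 and at 100 it was 23. The paternally expressed median was 30.5 per kb of span, 86.4 per kb of exon and 52.0 with means of at least 10 alone. The maternally expressed median was 21.0 per kb of span, 103 per kb of exon and 21.0 with means of at least 10, so exon length turned the order of the alleles. Members with a PROMPT mean of at least 1 numbered 12, and 2 at 10. The median CpG count was 10.5 in 250 bases and 6 in the nearest 100 bases.

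No paired analysis was possible because each gene has only 1 mean over all libraries. For the same reason, leaving out a replicate, other normalizations and a filter on low counts were not run for depleted against control cells. Replicate spread is unknown, so no difference between members was tested, and low means, such as those of Dlk1 and Rtl1, rest on few reads.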
